A study of Mus musculus with 18 samples.

Results

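Lubricin, encoded by Prg4, was followed with 7 genes of tendon in mouse calf muscle under endoplasmic reticulum stress (ERS). These 8 genes, Prg4, Scx, Mkx, Tnmd, Kera, Comp, Cilp and Cilp2, of 22180 measured were chosen by their mean log2 change within the mouse, since Prg4 was higher and several tendon genes were lower in muscle injected with tunicamycin than in muscle injected with saline. Their differences between treatments are therefore given as a description and carry no test. Only probesets with a single gene symbol were used. Gene expression was measured by array in gastrocnemius muscles of 9 mice. In each mouse a single leg had received 30 µg of tunicamycin in 30 µL and the contralateral leg saline, and both muscles were taken after 24 h. Tunicamycin stops the N-linked glycosylation of proteins, so that unfolded proteins build up. All mice were labelled WT females of a mixed C57Bl6/J-SV129 background, with no age given. The animal section of the study instead describes male C57BL/6J mice. Which background holds for these muscles could not be settled, and values that bear on sex are given below. Since every mouse was injected with tunicamycin, a change shared by both legs could not be seen.

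Tendon is a collagen-rich tissue kept by tenocytes. In these cells the transcription factors scleraxis (Scx) and Mohawk (Mkx) control genes of the matrix and Tnmd, which encodes the membrane protein tenomodulin. Kera encodes the small proteoglycan keratocan, Comp a matrix protein of the thrombospondin family that binds collagen, and Cilp and Cilp2 encode related matrix proteins first known from cartilage. Prg4 encodes a mucin-like secreted glycoprotein that lubricates joint and tendon surfaces and is made by the synovial lining, by cells at the cartilage surface and by cells at the surface of tendons.

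The 18 arrays, 9 of tunicamycin legs and 9 of saline legs, had medians between 4.99 and 5.07 on the log2 scale and correlated with each other at 0.982 to 0.991. The 10 listed genes of skeletal muscle fibres had mean signals of 11.7 to 11.9 in tunicamycin legs and 11.8 to 11.9 in saline legs, and 0 of them passed the test below. Mice 1 and 9 stood apart. The mean change of 9 ER chaperone genes, a readout of the response to tunicamycin, was 0.70 and 0.65 in these mice, against 1.26 to 2.08 in the other 7. Xist, which is made from the inactive X of females, had a signal of 4.90 in the tunicamycin leg and 4.79 in the saline leg of mouse 9, while all legs of mice 1 to 8 had 9.22 to 9.52. The label of female is thus borne out for mice 1 to 8 and not for mouse 9. The changes of the 8 genes, and the changes of other genes that differ most, are therefore given with and without these mice. A larger change without them carries no added weight, since their chaperone changes come from the same contrast. In bulk muscle, fewer cells of a type and less RNA per cell cannot be told apart, and the amount of tendon or joint tissue taken with each muscle is not known.

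Each gene was measured by 1 probeset, and no probeset that carried several symbols held any of them. Across all genes, limma called 10.9% changed at an adjusted p under 0.05, with 4.72% higher and 6.15% lower in tunicamycin legs. Of the 8 genes, 1 was past this threshold as higher and 4 as lower, a count from which nothing is read because the same contrast chose them. Their mean signals lay above the median of all genes for 5 of the 8, and below it for Mkx, Tnmd and Kera.

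Prg4 had log2 signals from 9.91 to 11.53, with a median of 10.95, in tunicamycin legs, and from 9.36 to 10.38, with a median of 9.97, in saline legs. In 7 of the 9 mice the tunicamycin leg lay above every saline leg of the series, and the tunicamycin legs of mice 1 and 9 lay within the saline range. The change averaged 0.96 ± 0.71 on the log2 scale (SD, n = 9 mice), a 1.95-fold higher signal, and was positive in 8 of 9 mice. It was largest in mouse 3, at 2.08, and smallest in mouse 9, at 0.13, and mouse 1, at -0.29. Without mice 1 and 9 it averaged 1.26 ± 0.44 (SD, n = 7 mice) with a range of 0.75 to 2.08. The same 2 mice had the smallest chaperone changes, and mouse 3 had the largest of both.

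**Figure D1:**
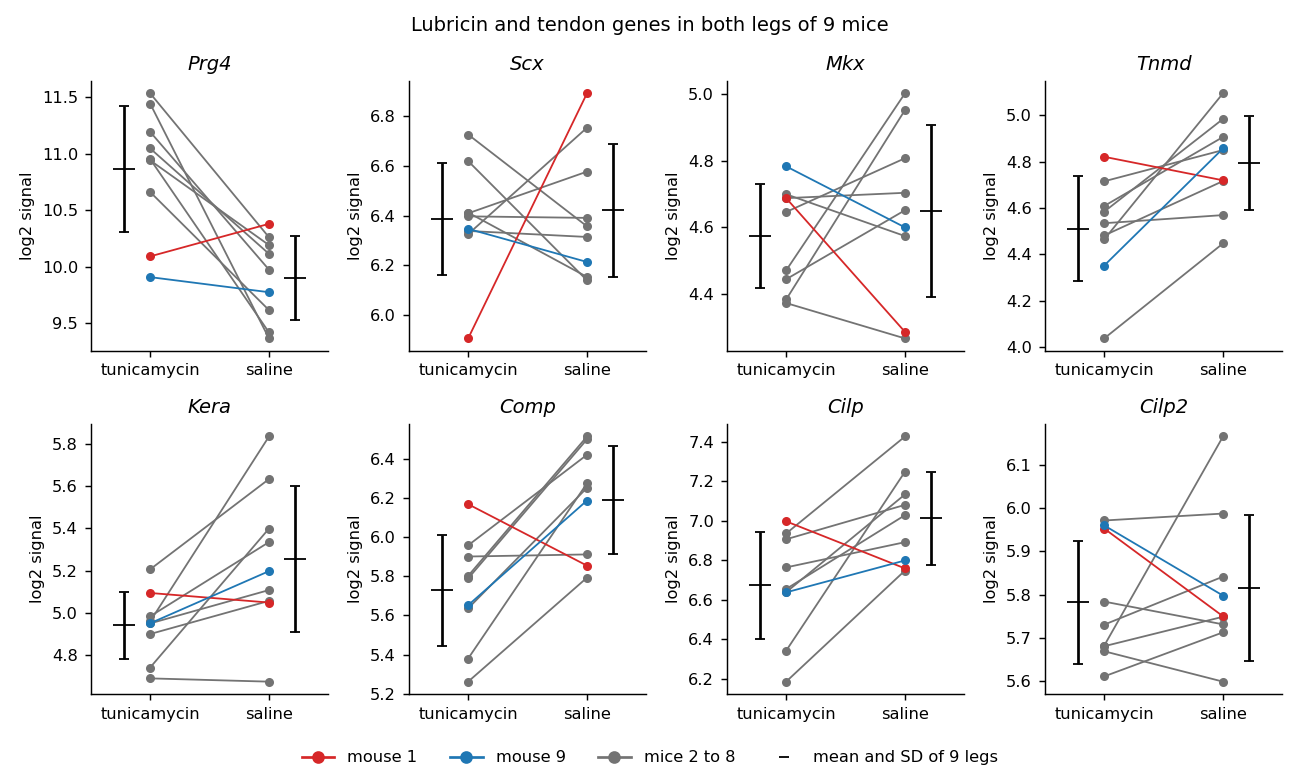
Log2 array signal of the 8 genes in the tunicamycin leg and the saline leg of 9 mice, with lines joining legs of the same mouse, black bars giving mean and SD, and a separate vertical scale for each gene that does not start at 0. Prg4 lies above all saline legs in 7 of 9 tunicamycin legs, and the line of mouse 1 runs against the others for Prg4, Comp, Tnmd and Cilp.

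The matrix gene Comp showed the largest mean difference among the 7 chosen tendon genes. Its log2 signals ran from 5.26 to 6.17, with a median of 5.79, in tunicamycin legs, and from 5.79 to 6.51, with a median of 6.25, in saline legs. In 5 of 9 mice the tunicamycin leg was below every saline leg. The change averaged -0.46 ± 0.38 (SD, n = 9 mice), a signal 0.73 times that of saline legs, and was negative in 8 of 9 mice. Mouse 1 had 0.31 and mouse 3 had -0.01, and the other 7 mice lay between -0.89 and -0.46. The mean was -0.56 ± 0.28 without mice 1 and 9 (SD, n = 7 mice).

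Cilp, like Comp, was lower in all mice but mouse 1. It had log2 signals of 6.18 to 7.00, with a median of 6.65, in tunicamycin legs, and of 6.75 to 7.43, with a median of 7.03, in saline legs. Again 5 of 9 tunicamycin legs lay below every saline leg. The change averaged -0.34 ± 0.33 (SD, n = 9 mice) with 0.24 in mouse 1, and -0.45 ± 0.26 without mice 1 and 9 (SD, n = 7 mice). Its paralogue Cilp2 showed little difference between legs. Cilp2 signals ran from 5.61 to 5.97 in tunicamycin legs and from 5.60 to 6.17 in saline legs, and the change of -0.03 ± 0.20 was positive in 4 mice and negative in 5. Its sign turned without mouse 6, to 0.02, and without mice 1 and 9 it was -0.09 ± 0.19 (SD, n = 7 mice).

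Tnmd had log2 signals of 4.04 to 4.82, with a median of 4.53, in tunicamycin legs, and of 4.45 to 5.09, with a median of 4.85, in saline legs. The groups overlapped, although 5 saline legs lay above every tunicamycin leg. The change averaged -0.28 ± 0.23 (SD, n = 9 mice) and was negative in 8 of 9 mice, with 0.10 in mouse 1, and without mice 1 and 9 it was -0.31 ± 0.20 (SD, n = 7 mice). Kera had 4.69 to 5.21, with a median of 4.95, in tunicamycin legs, and 4.67 to 5.84, with a median of 5.197, in saline legs. Its change averaged -0.31 ± 0.30 (SD, n = 9 mice), negative in 7 of 9 mice, and -0.37 ± 0.31 without mice 1 and 9 (SD, n = 7 mice). The difference of Kera lay in the upper part of the range, where 4 saline legs exceeded every tunicamycin leg. Its spread in tunicamycin legs was 0.46 times that in saline legs (SD 0.16 and 0.35). Both genes had low signals, at which array changes are compressed.

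The transcription factor genes Scx and Mkx showed no common direction among mice. Scx had log2 signals of 5.90 to 6.73, with a median of 6.40, in tunicamycin legs, and of 6.14 to 6.89, with a median of 6.36, in saline legs. Its change averaged -0.03 ± 0.45 (SD, n = 9 mice) and was positive in 6 mice, and the sign turned without mouse 1, to 0.08, and without mouse 2, to 0.015. Mouse 1 had -0.99. Mkx had 4.37 to 4.78, with a median of 4.65, in tunicamycin legs, and 4.26 to 5.00, with a median of 4.65, in saline legs, and its change of -0.07 ± 0.33 was negative in 5 of 9 mice. Without mice 1 and 9 it was -0.18 ± 0.28 (SD, n = 7 mice).

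Promoters were read for the 4 of these genes with a promoter sequence at hand (GRCm38.p6), each from 250 bases before to 50 bases after the start of the gene. They are shown because Tnmd, Kera and Cilp were lower together while Cilp2, the paralogue of Cilp, was not. Capitals mark E-boxes (CANNTG, both strands), the motif bound by factors of the family of Scx.
Tnmd, chrX:133850758-133851057, plus strand: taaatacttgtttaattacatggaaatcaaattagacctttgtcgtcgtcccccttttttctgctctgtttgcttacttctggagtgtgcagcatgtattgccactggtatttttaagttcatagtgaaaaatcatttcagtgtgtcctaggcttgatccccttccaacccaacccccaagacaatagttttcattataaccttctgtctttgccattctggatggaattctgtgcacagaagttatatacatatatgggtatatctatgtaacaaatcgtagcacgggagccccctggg
Kera, chr10:97606955-97607254, plus strand: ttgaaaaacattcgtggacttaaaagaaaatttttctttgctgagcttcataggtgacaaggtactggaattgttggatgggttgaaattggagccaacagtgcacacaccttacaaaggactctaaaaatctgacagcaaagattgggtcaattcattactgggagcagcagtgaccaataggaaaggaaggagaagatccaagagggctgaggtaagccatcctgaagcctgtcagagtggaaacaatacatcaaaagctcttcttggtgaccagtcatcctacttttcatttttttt
Cilp, chr9:65264930-65265229, plus strand: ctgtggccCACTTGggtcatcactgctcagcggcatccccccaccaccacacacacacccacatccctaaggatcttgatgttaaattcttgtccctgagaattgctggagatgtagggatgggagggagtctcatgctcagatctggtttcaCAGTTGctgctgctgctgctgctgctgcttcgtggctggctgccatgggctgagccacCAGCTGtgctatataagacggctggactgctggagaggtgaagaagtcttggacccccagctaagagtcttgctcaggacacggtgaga
Cilp2, chr8:69887343-69887642, minus strand: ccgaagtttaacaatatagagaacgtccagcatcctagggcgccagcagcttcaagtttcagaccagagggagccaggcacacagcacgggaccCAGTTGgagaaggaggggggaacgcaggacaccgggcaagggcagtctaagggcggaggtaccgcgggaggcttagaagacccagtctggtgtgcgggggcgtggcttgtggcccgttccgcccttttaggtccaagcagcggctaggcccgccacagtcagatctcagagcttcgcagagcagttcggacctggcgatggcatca

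An E-box was found in 72.3% of 32851 promoters of this length. Cilp held 3 E-boxes and Cilp2 held 1, and the windows of Tnmd and Kera held 0. Also searched on both strands were elements of ER stress and related signals. They included the ATF4 element TGATGNAA, found in 3.97% of all promoters, the UPRE TGACGTGG (0.676%) and the CRE TGACGTCA (1.79%). The others were the ERSE, CCAAT and CCACG with 9 bases between (0.119%), and the ERSE-II, ATTGG and CCACG with 1 base between (0.0365%). The TATA box was searched too, only as the letters TATAAA (13.6%). None of these letters occurred in the 4 windows, and other forms of the TATA box were not searched. The promoter of Cilp2 had a GC content of 61.3% and that of Cilp 55.7%, against 40.0% for Tnmd and 41.0% for Kera, with a median of 52.7% over all promoters. For Prg4, Scx, Mkx and Comp no promoter sequence was at hand.

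Within a mouse, a large change of Prg4 did not always go with a large change of the tendon genes. Comp, Tnmd, Kera and Cilp were all lower in the tunicamycin leg of mice 2, 3, 4, 5, 6, 7 and 9, in 3 of 4 cases in mouse 8, and in 0 of 4 in mouse 1. Mouse 3 had the largest change of Prg4, 2.08, and yet Comp, Tnmd, Cilp and Kera changed there by -0.01, -0.04, -0.13 and -0.16. In mouse 9 Prg4 changed by 0.13, whereas Comp and Tnmd changed by -0.53 and -0.50. Mouse 1 was the only mouse in which Prg4 was lower and 6 of the 7 tendon genes were higher in the tunicamycin leg, the exception being Scx.

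**Figure D2:**
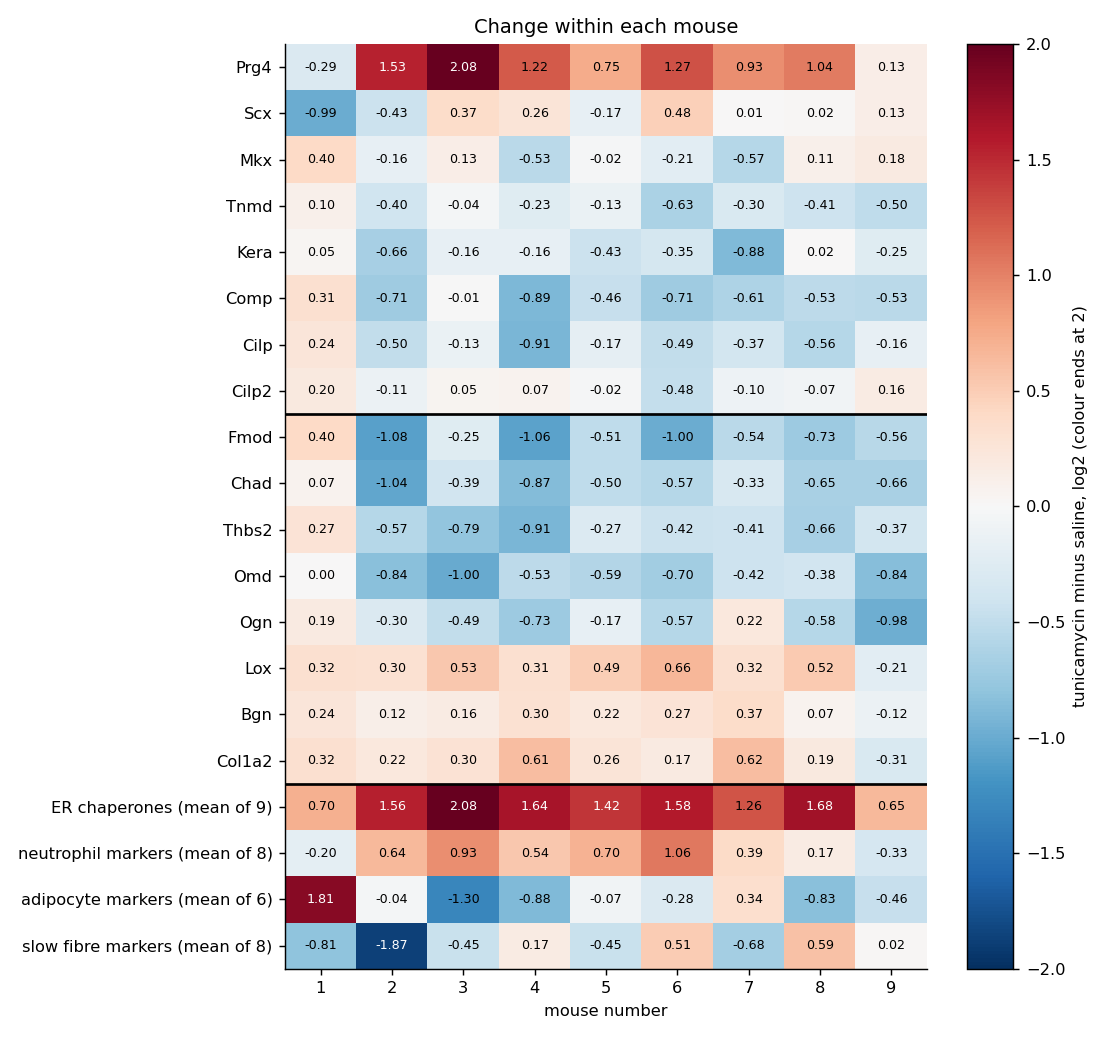
Change in each mouse, as log2 tunicamycin minus saline, for the 8 genes (top block), for other tendon and matrix genes (middle block) and for means of marker lists (bottom block), with red for higher and blue for lower in the tunicamycin leg. Mouse 1 has 0.40 for Fmod and 0.31 for Comp where most mice are negative, and mouse 3 has 2.08 for Prg4 with -0.01 for Comp.

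Markers of other cells moved in some of the same legs. Of 8 neutrophil markers 5 rose and 0 fell, 62.5% against 10.9% of all genes. Ly6g did not pass (-0.09 ± 0.096 SE, adjusted p = 0.625), and 3 of the 8 had a saline signal above the median of all genes. The mean signal of the 8 was 4.63 to 5.59 in tunicamycin legs and 4.36 to 5.03 in saline legs. Its change was -0.20 and -0.33 in mice 1 and 9, against 0.17 to 1.06 in the others. Of 8 macrophage markers 4 rose and 1 fell, 62.5% against 10.9% of all genes, and all 8 had a saline signal above the median of all genes. The 1 that fell was Cd163 (-0.32 ± 0.062 SE, adjusted p = 0.00810). The mean signals of the 8 were 6.55 to 7.46 in tunicamycin legs and 6.27 to 6.95 in saline legs. Adipocyte markers, of which 0 of 6 passed, had mean signals of 6.71 to 9.24 in tunicamycin legs and 6.91 to 8.01 in saline legs, and the tunicamycin leg of mouse 1 exceeded its saline leg by 1.81. Slow fibre markers, of which 0 of 8 passed, had mean signals of 7.67 to 8.64 in tunicamycin legs and 7.58 to 9.54 in saline legs, and changed by -1.87 in mouse 2. The part of these cells in the values of Prg4 and the tendon genes was not tested.

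The question of whether genes of tendon outside this set differed between legs was addressed with a list of 18 further tendon genes, all measured. Of these 3 fell, 3 rose and 12 did not pass (limma, Benjamini-Hochberg over all 22180 genes), so that 33.3% were called, against 10.9% of all genes. The median change of the list was 0.11, against 0.01 for all genes. Of the 18, 17 had a saline signal above the median of all genes. Genes above the median signal, 11085 without the 8 chosen genes, gave 3007 calls when fitted alone, more than the 2410 of all 22180 genes. The share called in that fit is thus well above 10.9%. Its counterpart in the main fit was not counted, so the 33.3% is not read as an excess. The 3 that fell were chondroadherin, Chad, a leucine-rich matrix protein that binds collagen (-0.55 ± 0.091 SE, adjusted p = 0.00348), Thbs2, a thrombospondin of connective tissue (-0.46 ± 0.096 SE, adjusted p = 0.0112), and fibromodulin, Fmod, a proteoglycan that guides collagen fibril growth in tendon (-0.59 ± 0.13 SE, adjusted p = 0.0121). Each was lower in 8 of 9 mice, with mouse 1 as the exception, and each was called whichever single mouse was left out. The changes without mice 1 and 9 were -0.62 for Chad, -0.58 for Thbs2 and -0.74 for Fmod.

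Fmod had log2 signals of 6.06 to 7.17, with a median of 6.65, in tunicamycin legs, and of 6.77 to 7.65, with a median of 7.30, in saline legs, so that 6 tunicamycin legs lay below every saline leg. Chad had 5.23 to 6.01, with a median of 5.65, in tunicamycin legs, and 5.92 to 6.51, with a median of 6.10, in saline legs, with 7 tunicamycin legs below every saline leg. For Thbs2, 8 of 9 tunicamycin legs lay below every saline leg.

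The 3 tendon genes that rose were Lox, Bgn and Col1a2. Lox, the lysyl oxidase that cross-links collagen, changed by 0.36 ± 0.074 SE (adjusted p = 0.0102) and was higher in 8 of 9 mice, with -0.21 in mouse 9. The proteoglycan gene Bgn (0.18 ± 0.052 SE, adjusted p = 0.0415) and the collagen gene Col1a2 (0.27 ± 0.079 SE, adjusted p = 0.0483) were close to the threshold. Without the mouse block the adjusted p was 0.110 for Bgn and 0.138 for Col1a2. After centring on array medians it was 0.0751 for Bgn and 0.0707 for Col1a2, and with the brightest probeset 0.174 for Bgn and 0.0501 for Col1a2, which also had 0.0501 after quantile normalization again. Besides, the call was lost when any 1 of mice 1 to 7 was left out for Bgn (0.0663 to 0.101), and any 1 of mice 1 to 8 for Col1a2 (0.0684 to 0.118). Without mice 1 and 9 together, 5 of the 18 rose and 3 fell, with changes of 0.45 for Lox, 0.22 for Bgn and 0.34 for Col1a2. Thbs4 (0.37 ± 0.11 SE, adjusted p = 0.0533) and the collagen gene Col1a1 (0.11 ± 0.12 SE, adjusted p = 0.613) did not pass.

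**Figure D3:**
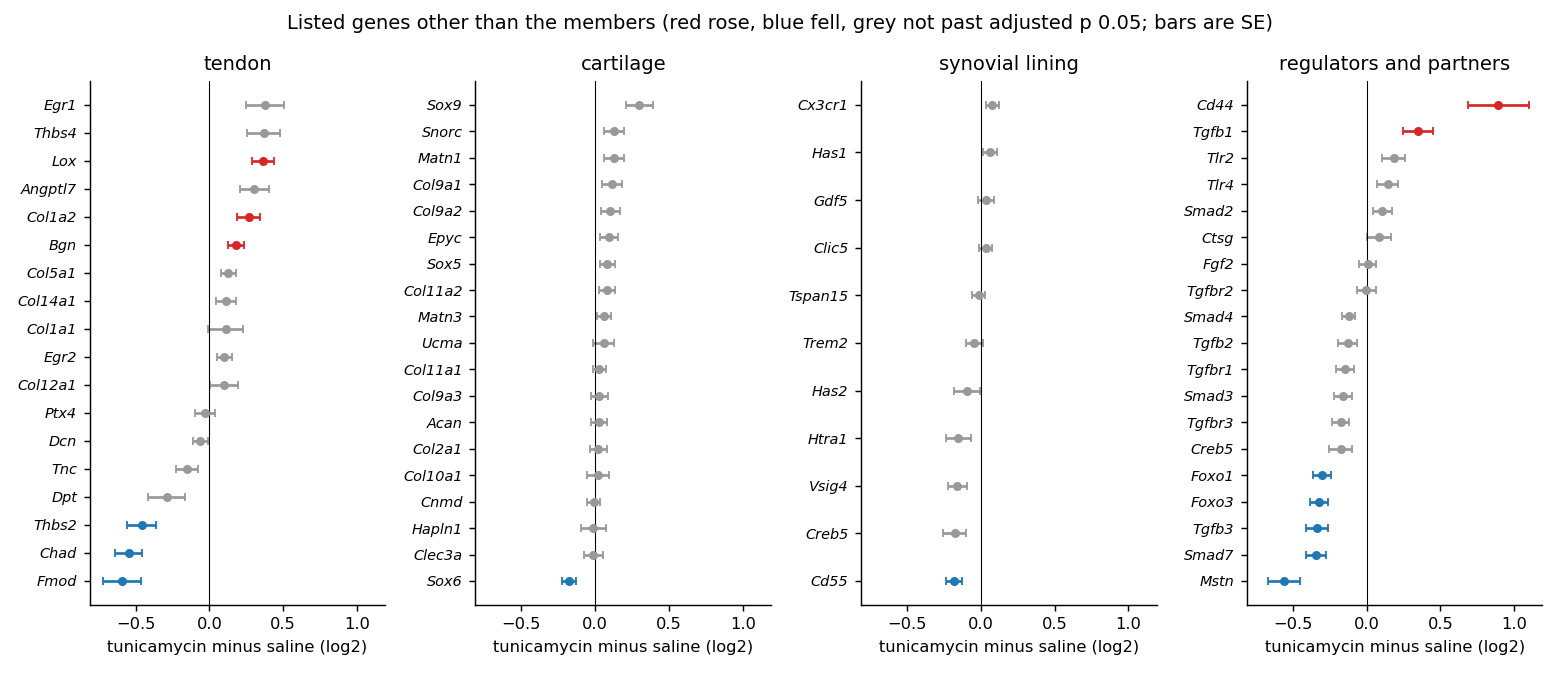
Change of listed genes other than the 8, as log2 tunicamycin minus saline with its moderated standard error, in panels for tendon, cartilage, synovial lining, and regulators and partners. Fmod, Chad and Thbs2 lie at -0.59 to -0.46 below the rest of the tendon panel, 1 of 19 cartilage genes is coloured, and Cd44 lies highest at 0.89.

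Genes of cartilage were examined because Comp, Cilp and Cilp2 are also made there. Of 19 cartilage genes 0 rose and 1 fell, which is 5.26% against the 10.9% of all genes. The cartilage collagen Col2a1 changed by 0.02 ± 0.057 SE (adjusted p = 0.858) and aggrecan, Acan, by 0.03 ± 0.054 SE (adjusted p = 0.805). Col2a1 had a mean signal of 5.72 in tunicamycin legs and 5.70 in saline legs, and Acan of 4.52 in tunicamycin legs and 4.49 in saline legs. The largest change of the list was that of Sox9, the main transcription factor of cartilage, with 0.30 ± 0.094 SE (adjusted p = 0.0578), higher in 8 of 9 mice. A rise was called for 1 cartilage gene with array weights, among genes above the median signal, and without mouse 1, mouse 9 or both. The mean change of the list was 0.06 and positive in 9 of 9 mice, and 6 of the 19 genes had a saline signal above the median of all genes. The gene that fell was the transcription factor Sox6 (-0.18 ± 0.048 SE, adjusted p = 0.0362), which also acts in muscle fibres and whose call was lost when any 1 of mice 2 to 8 was left out (adjusted p = 0.0548 to 0.0914) and after quantile normalization again (0.0617). Of 11 genes of the synovial lining, the tissue best known for Prg4, 0 rose and 1 fell, 9.09%. That gene was Cd55, a complement regulator (-0.18 ± 0.054 SE, adjusted p = 0.0470), with adjusted p = 0.196 without the mouse block and 0.0646 to 0.108 when any 1 of mice 3 to 9 was left out, and 0.104 after quantile normalization again. Creb5, a transcription factor of Prg4 in cartilage surface cells, changed by -0.18 ± 0.077 SE (adjusted p = 0.170), and the hyaluronan synthases Has1 and Has2 by 0.06 ± 0.049 and -0.09 ± 0.087 SE (adjusted p = 0.477 and 0.554).

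The closest relatives of the 8 genes were compared as families, and 12 of 19 had a saline signal above the median of all genes. Of 19 relatives 0 rose and 4 fell, 21.1% against 10.9% of all genes, and apart from Thbs2 and Fmod these were osteomodulin, Omd (-0.59 ± 0.087 SE, adjusted p = 0.00190), and osteoglycin, Ogn (-0.38 ± 0.11 SE, adjusted p = 0.0446), which like Kera encode small leucine-rich proteoglycans. Omd had signals of 4.64 to 5.28, with a median of 4.84, in tunicamycin legs, and of 5.22 to 5.86, with a median of 5.48, in saline legs, and it was called whichever mouse was left out. Ogn did not pass without the block (0.0834), nor when any 1 of mice 2, 3, 4, 5, 6, 8 and 9 was left out (0.0675 to 0.111), after quantile normalization again (0.0636) or with a trended and robust prior (0.0796). Lum and Prelp of the same family gave 0.04 ± 0.11 and -0.09 ± 0.054 SE (adjusted p = 0.879 and 0.353). Cnmd, the chondromodulin gene and nearest relative of Tnmd, changed by -0.01 ± 0.042 SE (adjusted p = 0.908). In the thrombospondin family of Comp, Thbs1 changed by 0.05 ± 0.14 SE (adjusted p = 0.850) and Thbs3 by 0.10 ± 0.058 SE (adjusted p = 0.327).

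Among 19 regulators and partners of lubricin and tendon genes, 2 rose and 5 fell, 36.8% against 10.9% of all genes. Of the 19, 18 had a saline signal above the median of all genes, and a larger share was called when genes above the median were fitted alone. The 36.8% is therefore not read as an excess. Cd44, a receptor that lubricin binds, changed by 0.89 ± 0.21 SE (adjusted p = 0.0175), and 7 tunicamycin legs lay above every saline leg, whereas mice 1 and 9 had changes of -0.43 and -0.27. Cd44 is also abundant on leukocytes, whose markers are given above. Its adjusted p was 0.0502 and 0.0509 without mouse 3 or mouse 4 and 0.0535 with a trended and robust prior, and without mice 1 and 9 its change was 1.25. The growth factor gene Tgfb1, whose product induces both Prg4 and tendon genes, rose by 0.35 ± 0.10 SE (adjusted p = 0.0462), a call lost when any 1 of mice 1 to 8 was left out (0.0516 to 0.110) and after centring on array medians (0.0634), with a change of 0.49 without mice 1 and 9. Myostatin, Mstn, which is made by muscle and acts on tendon, fell (-0.56 ± 0.11 SE, adjusted p = 0.00751), as did the transcription factor genes Foxo3 (-0.32 ± 0.059 SE, adjusted p = 0.00593) and Foxo1 (-0.30 ± 0.062 SE, adjusted p = 0.0104), and Smad7, an inhibitor of TGF-beta signalling (-0.34 ± 0.069 SE, adjusted p = 0.00884, lower in 9 of 9 mice). Foxo1 had adjusted p = 0.0915 without the block. The fifth was Tgfb3, a growth factor of tendon development (-0.34 ± 0.074 SE, adjusted p = 0.0136), named after its value was seen. The myotendinous junction, where fibres meet tendon, was described by 6 genes. Of these 1 rose, 16.7% against 10.9% of all genes, and nothing about the junction is read from 1 gene. It was Ankrd1 (1.07 ± 0.31 SE, adjusted p = 0.0430, 0.120 with a trended and robust prior, and 0.0517 to 0.104 when any 1 of mice 2 to 8 was left out). Ankrd1 changed by 1.53 without mice 1 and 9, whose own changes of Ankrd1 were the lowest, at -1.20 and 0.15. The defining collagen of the junction, Col22a1, changed by -0.03 ± 0.058 SE (adjusted p = 0.818).

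The 8 genes were chosen by mean changes and not by how they varied among mice of the same treatment, and this variation was tested. The tunicamycin signals are nevertheless part of the changes that chose the genes. Differences in response among mice remain in these legs, and their part in the relations was not tested. Each of 28 pairs was related over 9 legs, with an exact two-sided permutation of the pairings. Among the 21 pairs without Prg4 the median Pearson r was 0.52 in tunicamycin legs and 0.51 in saline legs. Comp and Cilp were the closest pair in tunicamycin legs, with r = 0.935 (exact p = 3.69e-04, adjusted over 28 pairs 0.0103) and Spearman rho = 0.833 (exact p = 0.00827, adjusted 0.116). Without the 2 legs farthest from the median of Comp, r was 0.785. In saline legs the same pair had r = 0.824 (exact p = 0.00774, adjusted 0.108) and rho = 0.900 (exact p = 0.00203, adjusted 0.0568). Tnmd and Comp had r = 0.833 in tunicamycin legs (exact p = 0.00519, adjusted 0.0531; rho = 0.733, exact p = 0.0311) and r = 0.876 in saline legs (exact p = 0.00185, adjusted 0.0519; rho = 0.767, exact p = 0.0214). After adjustment 1 pair of 28 passed in tunicamycin legs and 0 in saline legs, with 8 and 7 at an unadjusted exact p under 0.05. Without mice 1 and 9, 0 pairs passed after adjustment in tunicamycin legs. The share of related pairs among other genes was not computed, so these counts are not read as particular to the 8 genes.

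No pair with Prg4 passed after adjustment in either treatment. In saline legs its r with the 7 tendon genes ran from 0.016 to 0.375, and 0 of 7 had an exact p under 0.05. In tunicamycin legs they ran from -0.640, with Cilp2, to 0.771, with Scx (exact p = 0.0125, adjusted 0.0678; rho = 0.783, exact p = 0.0172, adjusted 0.121; r = 0.868 without the 2 legs farthest from the median of Prg4). In saline legs Prg4 and Scx had r = 0.094 (exact p = 0.806; rho = 0.067), and whether the relation differed between treatments was not tested. With the other tendon genes Scx had r between -0.40 and -0.08 in tunicamycin legs and between -0.34 and 0.14 in saline legs.

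**Figure D4:**
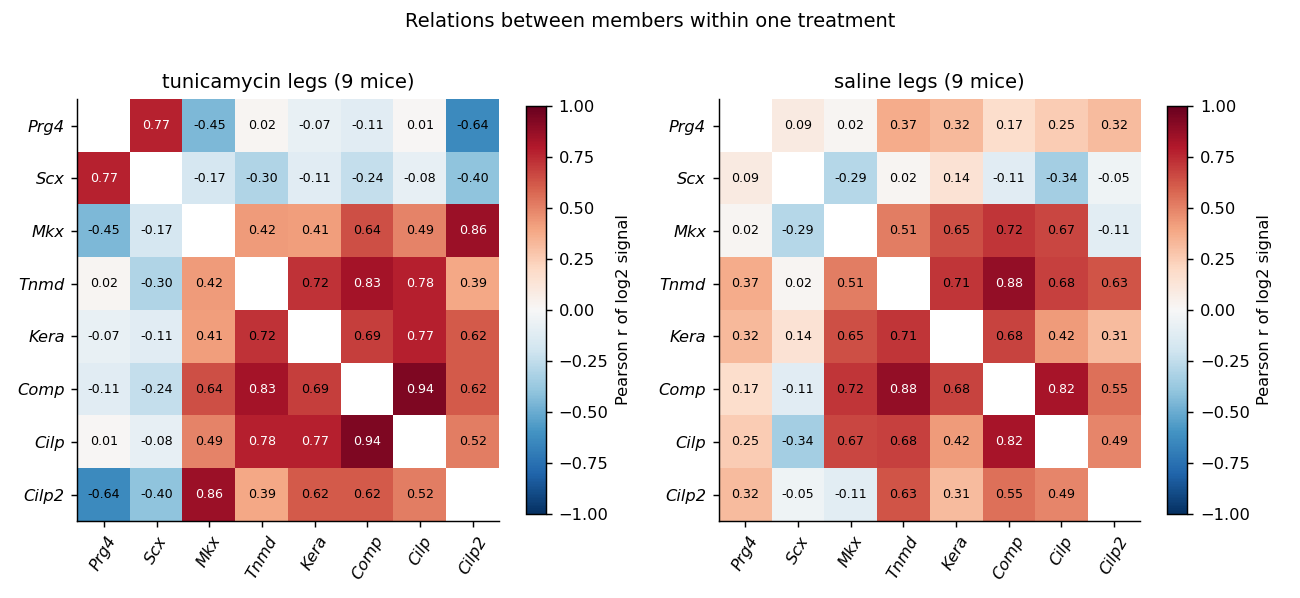
Pearson r between the log2 signals of each pair of the 8 genes, over 9 tunicamycin legs (left) and over 9 saline legs (right), with red for positive and blue for negative values. Comp, Cilp, Tnmd and Kera form a block of positive values in both panels, up to 0.935 for Comp and Cilp, while in tunicamycin legs Prg4 has 0.771 with Scx and -0.640 with Cilp2.

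Legs of the same mouse were also compared, to see whether the level of a gene was a property of the animal. Over 9 mice the r between tunicamycin and saline leg ran from -0.673, for Scx, to 0.472, for Kera, and 0 of 8 passed after adjustment over 8 genes, with 1 at an unadjusted exact p under 0.05. That was Scx (exact p = 0.0431, adjusted 0.345; rho = -0.617, exact p = 0.0857, adjusted 0.432), and r was -0.11 without the 2 mice farthest from the median saline level. For Prg4 r was -0.13 (exact p = 0.728, adjusted 0.832; rho = -0.083, exact p = 0.843), and it was 0.24 without the 2 farthest mice.

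Genes with the most similar course were ranked, as a description, by Pearson r over the 18 arrays after centring each gene within its treatment, among 11085 genes above the median signal. All points share the same RNA and arrays. For the mean of the 7 tendon genes the closest were Fmod (r = 0.883), Itgbl1 (0.813), Pdp1 (0.783), Chad (0.758) and Mblac2 (0.748), of which Fmod and Chad are the tendon genes that fell as described above. For Prg4 the closest were Calu (r = 0.907), which encodes a calcium-binding protein of the secretory pathway, Macf1 (0.901), a linker of actin and microtubules, the integrin gene Itgb1 (0.898), the actin nucleation gene Actr3 (0.894) and the lipid enzyme gene Far1 (0.891). None of the 5 was a listed gene of tendon, cartilage or the synovial lining, which says little, since few of the 11085 genes are listed. Centring within treatment leaves differences in response among tunicamycin legs, and their part in this ranking was not tested.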

How the data were processed

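Total RNA of 18 gastrocnemius muscles was hybridised to MoGene-2_0-st arrays, 1 array per muscle. The deposited values are log2 signals per probeset, which the authors made with Partek by RMA (background correction, quantile normalization and median polish). The genome build is not given in the sources used here. Precision is set by how many arrays there are, large changes are compressed on arrays, and signals are set against those of other genes only by a split at the median of all genes.

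Of 41345 probesets, 23521 carried a single symbol in the platform annotation and were averaged to 22180 genes. Groups and mouse numbers came from the labels. The two-sided moderated test of limma 3.58.1 (R 4.3.3) had treatment and mouse as terms, with Benjamini-Hochberg adjustment over all genes and a threshold of 0.05. Both legs belong to a single animal per the labels. Deviations from group means correlated at a median r of 0.12 within a mouse (-0.039 to 0.35) and -0.013 between mice. The values were -0.028 and -0.039 for mice 1 and 9. For mouse 1 the pairing rests on the labels alone. Both legs labelled mouse 9 also had a low Xist signal, 4.90 with tunicamycin and 4.79 with saline, unlike all other legs. Correlations used exact permutation. The scripts were tested on simulated data. With legs simulated without a mouse effect, the limma test called 22 of 50 log2 changes of 0.3 and 42 of 50 of 0.5. It called 49 of 50 changes of 1 and 50 of 50 of 2. A change of about 0.3 or less that did not pass may therefore have been missed.

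The 8 genes, the gene lists and the tests were chosen with earlier results of these data known. Named genes were the 8 members, up to 4 genes with the smallest p in each direction from each list of tendon, myotendinous junction, cartilage, synovial lining, relatives, and regulators and partners, and the 5 genes most similar to Prg4 and to the mean of the others. Other genes are named as members of these lists that did not pass. Ly6g and Cd163 were named from the marker lists after their values were seen. Fibroblast, endothelial and Schwann cell lists gave 1 rise and 1 fall of 9, 0 of 6 and 0 of 4. Alternatives were no block, renewed quantile normalization, centring on array medians, the brightest probeset, genes above the median signal, a trended and robust prior, weights for arrays, a stricter threshold, testing by probeset, and leaving out mice.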

Additional observations from a re-analysis of the deposited data

Results flagged for a closer look

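In 78 groups of 9 values, those of the 8 genes and of the named genes of the lists, a sample was marked when its gap to the next value exceeded the share of the range that Dixon's test allows for 9 samples, which chance passes in about 5% of groups. This marked 7 groups. The tunicamycin leg of mouse 1 had a Scx signal of 5.90, below all other tunicamycin legs. The change of Cilp2 in mouse 6 was -0.48, apart from the other mice. Mouse 9 was apart in the changes of Col1a2 (-0.31), Lox (-0.21) and Tgfb1 (-0.49), and its saline leg had the highest Tgfb1 signal, 6.88. The saline leg of mouse 4 had a Smad7 signal of 6.96, above all other saline legs. Without mice 1 and 9 the change of Scx was 0.08 and that of Prg4 1.26.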

How the results depend on the processing

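The changes of the 8 genes moved by less than 1 SD in all 13 alternatives run for them. For most of these the outcome was fixed in advance. Leaving out single mice, or mice 1 and 9, cannot move a mean over 9 mice by 1 SD. With 1 probeset per gene, the brightest probeset gives the same values. Without each mouse in turn, Prg4 ran from 0.83 to 1.12 and Comp from -0.56 to -0.41, and Scx (-0.10 to 0.08) and Cilp2 (-0.06 to 0.02) changed sign. Of 18 named genes of the lists, 10 were called whichever mouse was left out, and 9 of these, all but Foxo1, also at the threshold of 0.05 in each other setting in which they were fitted. Omd was not among the genes above the median signal, and named genes were not tested by probeset. Genes called numbered 2410, with 1859 without the replicate block and 1304 to 2787 without single mice (563 to 1338 higher, 741 to 1474 lower). At an adjusted p under 0.01 they numbered 633, 301 higher and 332 lower, with 1 tendon gene lower and 0 higher, 0 cartilage, 0 synovial and 0 myotendinous genes, 1 relative lower, and 3 regulators lower and 0 higher. Tendon genes called higher numbered 5 with array weights, among genes above the median signal and without mice 1 and 9, and 1 after centring and without the block. Relatives called higher numbered 1 with array weights, above the median signal, after quantile normalization again and without mice 1 and 9, and cartilage genes called higher 1 in the same settings other than quantile normalization again. Cartilage genes called lower numbered 0 after quantile normalization again, synovial genes called lower 0 in that setting and without the block, myotendinous genes called lower 1 without mice 1 and 9 and called higher 0 with the trended prior, and regulators called higher 1 with that prior and after centring. Without single mice the counts were 0 to 1 for cartilage lower and higher, myotendinous genes higher, relatives higher and synovial genes lower, 0 to 2 for regulators higher, 5 to 6 for regulators lower, 3 to 4 for relatives lower, and 1 to 4 for tendon higher and 3 to 4 for tendon lower. Related pairs in tunicamycin legs numbered 2 after quantile normalization again and without mouse 9, and 0 without mice 1 and 9. The relation between legs turned to 0.043 for Mkx and 0.18 for Prg4 without mice 1 and 9. The cause of these moves was not tested. No detection call was used, so low signals such as those of Tnmd, Mkx and Kera limit what can be seen.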
